A study of Mus musculus with 8 samples.

Results

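The EGF receptor family and its ligands were followed in whole mouse lung by 12 probe sets of an oligonucleotide array, each annotated with 1 member gene alone, out of 12422 probe sets that were not controls. They cover 7 of the 9 genes chosen, among 8251 genes that the array annotation names alone: the receptors Egfr (3 probe sets) and Erbb3 (2), and the ligands Hbegf (1), Tgfa (1), Egf (2), Ereg (2) and Btc (1). No probe set used here was annotated with Erbb2 or Areg alone, so these 2 genes were not analysed here. The genes were chosen as signals of epithelial repair, and the rule that picks their probe sets uses no measured value.

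Each of 4 groups was read on 2 arrays: C3H/HeJ mice in ozone, C3H/HeJ mice in filtered air, C3H/HeOuJ mice in ozone and C3H/HeOuJ mice in filtered air. C3H/HeJ carries a missense mutation of the endotoxin receptor gene Tlr4, and C3H/HeOuJ is the related substrain with the intact gene. The labels give 72 h for both C3H/HeOuJ groups and no time for C3H/HeJ, and they give no ozone concentration, age, sex or number of animals. The 2 arrays of a group are named 1a and 1b, with no word on whether separate animals were used. The p-values therefore reflect array-to-array spread, whose source may be technical. The lung label was borne out by markers: the surfactant gene Sftpc, the club cell gene Scgb1a1 and the alveolar type 1 gene Ager had intensities of at least 28974 on every array, Sftpb of 14039 to 27385 and Sftpd of 98.1 to 328.

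EGF receptors are tyrosine kinases of the cell surface that pair with one another once a ligand binds, and they feed the Ras-MAPK and PI3K cascades. Egfr binds Egf, Tgfa, Hbegf, Btc, Ereg and Areg. Erbb3 has little kinase activity of its own, binds neuregulins and signals through its partners. The ligands are made as membrane proteins and are cut free by metalloproteases. In lung epithelium the family is known for driving the spreading and division of cells after injury.

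No member passed the test in any of the 6 comparisons made. The 3 estimates with an unadjusted p under 0.05 all used C3H/HeOuJ lungs in air, where Hbegf was at its lowest and Egfr probe set 101841_at at its highest, and none passed an adjusted p of 0.05 in limma. Erbb3 was the most evenly measured member, with fitted group means within 1.26-fold of each other. Ereg and Btc, and 1 of the 2 probe sets each of Erbb3 and Egf, were too dim to be tested.

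An intensity is the brightness of a probe set on a linear scale. Values were raised to a floor of 69.6, the 20th percentile of all values, before log2 was taken. A probe set was tested if at least 2 of 8 arrays lay above the floor, which held for 7 of the 12 member probe sets and for 10953 probe sets in all. Orders of group means and folds between them use the fitted means on the log2 scale, after the floor. Levels are compared between arrays for 1 probe set at a time, since probe sets differ in how brightly they bind. Whole tissue was measured, so fewer cells of a type and less RNA per cell cannot be told apart.

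**Figure D1:**
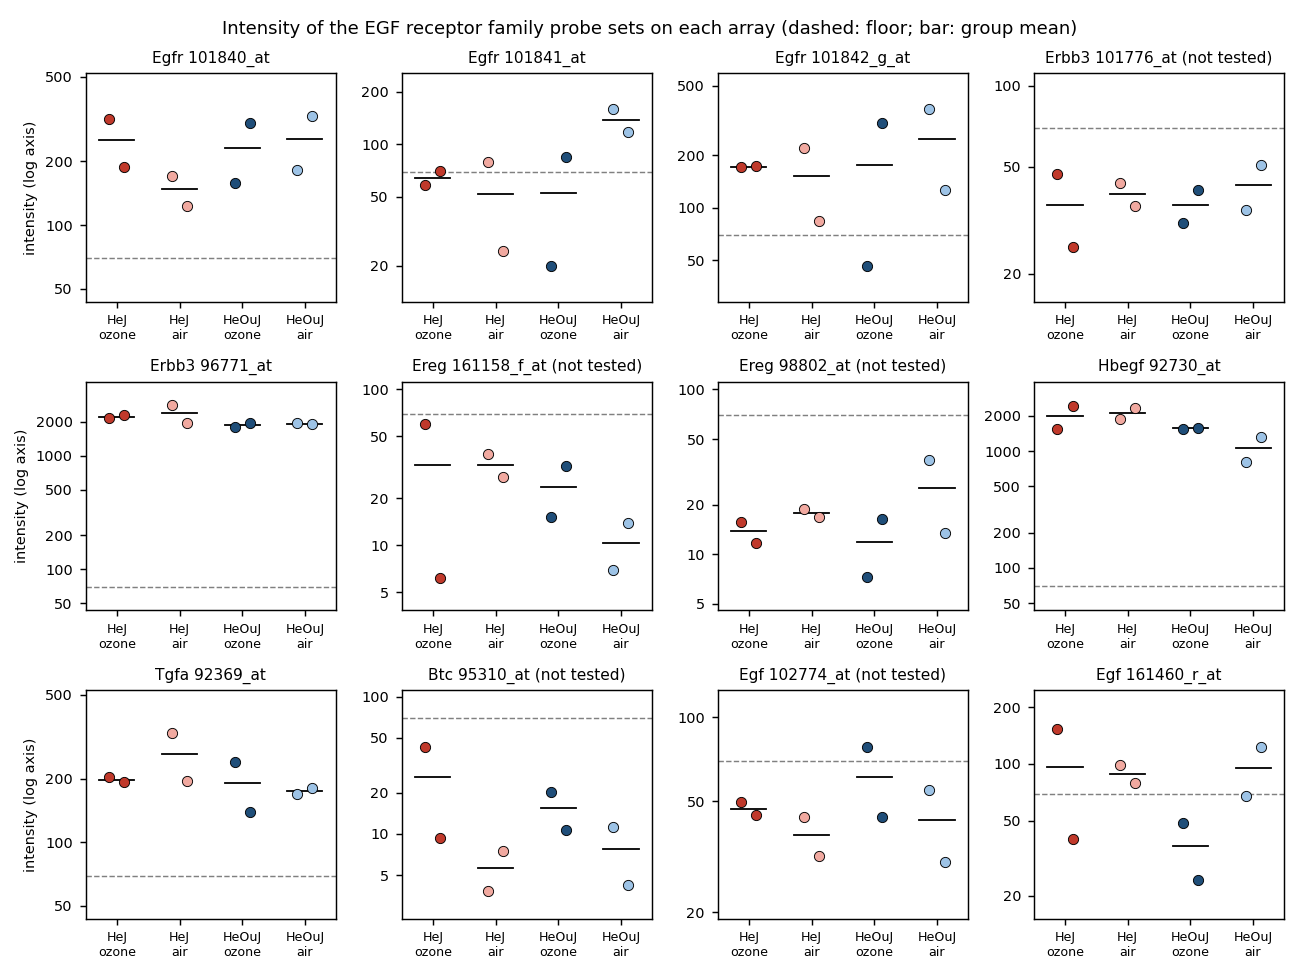
Intensity (log axis) of each of the 12 probe sets, 1 point per array, with arithmetic group means as bars and the floor of 69.6 dashed. Ereg and Btc lay below the floor on all 8 arrays, Hbegf was lowest on the 2 C3H/HeOuJ air arrays, and the 2 points of a group often lay as far apart as the groups did.

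Egfr, the receptor shared by most ligands of the family, was read by 3 probe sets. Probe set 101840_at had intensities of 318 and 187 in C3H/HeJ ozone, against 171 and 123 in C3H/HeJ air, and of 159 and 304 in C3H/HeOuJ ozone, against 182 and 325 in C3H/HeOuJ air. Both C3H/HeJ ozone arrays lay above both C3H/HeJ air arrays, while the C3H/HeOuJ groups overlapped. The ozone effect, as a log2 fold change of ozone over air, was 0.75 (SE 0.50) in C3H/HeJ and -0.15 (SE 0.50) in C3H/HeOuJ. Neither estimate passed in limma, with adjusted p-values of 1 and 0.924, and the C3H/HeJ value was 0.37 without C3H/HeJ ozone 1a and 1.13 without C3H/HeJ ozone 1b. The order of the fitted means was C3H/HeJ ozone, C3H/HeOuJ air, C3H/HeOuJ ozone and C3H/HeJ air, and each neighbour in that order overlapped the next.

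The dimmest Egfr probe set, 101841_at, stood out in C3H/HeOuJ air. Its intensities were 58.5 and 69.8 in C3H/HeJ ozone, 79.5 and 24.3 in C3H/HeJ air, 19.9 and 84.7 in C3H/HeOuJ ozone, and 160 and 117 in C3H/HeOuJ air. Only C3H/HeOuJ air had both arrays clear of the floor, and its 2 values lay above the other 6. The log2 fold change was -0.83 (SE 0.29) for ozone over air in C3H/HeOuJ and -0.88 (SE 0.29) for C3H/HeJ over C3H/HeOuJ in air. Each had an unadjusted p under 0.05, but the adjusted p-values in limma were 0.229 and 0.753. Both values use the same 2 C3H/HeOuJ air arrays and are not separate results. Because 3 groups lie near the floor, both these changes and the spread between arrays are understated on the log2 scale. The changes rest on few arrays above the floor. With the floor at the 10th percentile the ozone effect in C3H/HeOuJ was -1.44 (SE 0.74), and its unadjusted p in limma was 0.0778. With that floor only 2 member values had an unadjusted p under 0.05 in limma, and both were of Hbegf. The unadjusted p under 0.05 of 101841_at thus depended on the floor, both for ozone and between strains in air.

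The third Egfr probe set, 101842_g_at, varied most between arrays of a group. Its 2 C3H/HeOuJ ozone arrays read 46.4 and 305, a 4.38-fold gap after the floor was applied, and its 2 C3H/HeOuJ air arrays read 368 and 127. In C3H/HeJ the ozone arrays read 172 and 173, against 219 and 83.6 in air. All neighbouring groups overlapped. The spread left after the group means were fitted was larger than that of 99.1% of all probe sets tested. The 95% interval of its ozone effect in C3H/HeOuJ reached from 0.194-fold to 2.34-fold, so large changes in either direction lie within it.

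The 3 Egfr probe sets did not follow each other closely over the 8 arrays. Probe sets 101841_at and 101842_g_at, which the annotation traces to the same source sequence, had a Pearson correlation of 0.55 (exact permutation p = 0.144) and a Spearman correlation of 0.71 (exact permutation p = 0.064), two-sided. Adjusted over the 3 pairs compared, these became 0.433 and 0.192. Without the 2 C3H/HeOuJ air arrays, the farthest from the median of 101841_at, the Pearson correlation was 0.77. The pair 101840_at and 101841_at gave 0.21 and 0.41 for Pearson and Spearman (exact permutation p = 0.615 and 0.312), and the pair 101840_at and 101842_g_at gave 0.37 and 0.26 (exact permutation p = 0.361 and 0.536). After leaving out C3H/HeOuJ air 1b and C3H/HeJ ozone 1a, the 2 arrays farthest from the median of 101840_at, these 2 pairs had Pearson correlations of 0.21 and 0.68. All 3 had the same sign in 3 comparisons, each of which uses the C3H/HeOuJ air arrays, and no value passed. Between C3H/HeJ and C3H/HeOuJ in air the log2 differences of 101840_at, 101841_at and 101842_g_at were -0.74 (SE 0.50), -0.88 (SE 0.29) and -0.68 (SE 0.79). For ozone over air in C3H/HeOuJ they were -0.15, -0.83 and -0.57, and for the difference of the ozone effects 0.89, 0.74 and 0.92.

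**Figure D2:**
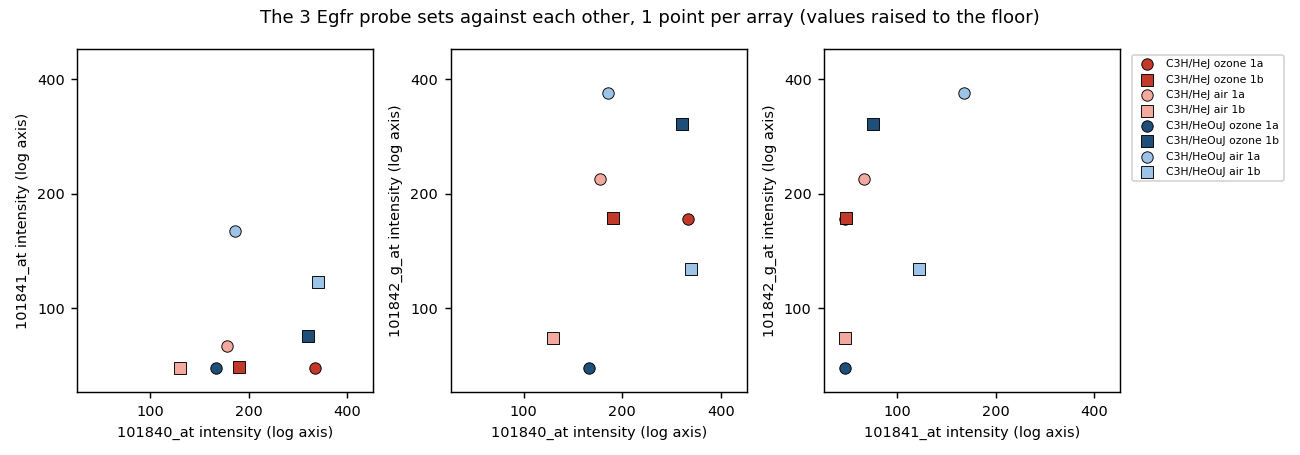
Intensities of the 3 Egfr probe sets plotted against each other on log axes, 1 point per array, with values below 69.6 raised to it and the colours giving the group. The points are scattered, with Pearson correlations of 0.21, 0.37 and 0.55 over 8 arrays, and C3H/HeOuJ air 1a lies highest on 101841_at and 101842_g_at but not on 101840_at.

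Erbb3, the neuregulin receptor, showed no change with ozone that these arrays could resolve. Probe set 96771_at had intensities of 2141 and 2272 in C3H/HeJ ozone, against 2810 and 1942 in C3H/HeJ air. In C3H/HeOuJ it had 1784 and 1942 in ozone, against 1938 and 1911 in air. The groups of each strain overlapped. The ozone effect was -0.08 (SE 0.18) in C3H/HeJ and -0.05 (SE 0.18) in C3H/HeOuJ on the log2 scale, and the 95% intervals ran from 0.713-fold to 1.25-fold and from 0.731-fold to 1.28-fold. Changes beyond those bounds lie outside the intervals, and smaller ones lie within them. The intervals are not adjusted over probe sets, so their bounds are not limits of detection for the test used.

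Both C3H/HeJ groups had Erbb3 values above those of C3H/HeOuJ at the same exposure. The log2 difference was 0.24 (SE 0.18) in ozone and 0.28 (SE 0.18) in air, without overlap of the arrays in either, and neither passed (adjusted p 0.514 and 0.969 in limma). The air groups missed an overlap narrowly: the lower C3H/HeJ air array read 1942 and the higher C3H/HeOuJ air array 1938, and without C3H/HeJ air 1a the difference was 0.013. The order of the means was C3H/HeJ air, C3H/HeJ ozone, C3H/HeOuJ air and C3H/HeOuJ ozone. The other Erbb3 probe set, 101776_at, lay below the floor on all 8 arrays, at 25.2 to 51.0, so nothing about Erbb3 could be checked with it.

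Hbegf, the heparin-binding ligand made by epithelium and by macrophages, had the clearest spread of levels between groups. Its intensities were 1552 and 2450 in C3H/HeJ ozone and 1898 and 2356 in C3H/HeJ air. C3H/HeOuJ ozone arrays read 1558 and 1568, against 811 and 1327 in C3H/HeOuJ air. The C3H/HeOuJ air arrays were thus the 2 lowest of the 8. C3H/HeJ over C3H/HeOuJ in air was 2.04-fold, a log2 fold change of 1.03 (SE 0.28), with a 95% interval from 1.32-fold to 3.15-fold. It was the smallest unadjusted p of any member, 0.00516, and the adjusted p over all probe sets was 0.639 in limma.

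The ozone effect on Hbegf was 0.59 (SE 0.28) in C3H/HeOuJ, without overlap of the 2 exposures, and -0.12 (SE 0.28) in C3H/HeJ, where they overlapped. Neither passed, with adjusted p-values of 0.345 and 1. The C3H/HeOuJ value was 0.24 without C3H/HeOuJ air 1a and 0.95 without C3H/HeOuJ air 1b. The difference of these effects, C3H/HeJ minus C3H/HeOuJ, was -0.71 (SE 0.39) with an adjusted p of 0.541, so the response was not shown to differ between the strains. The C3H/HeOuJ ozone effect and the strain difference in air both rest on the 2 low C3H/HeOuJ air arrays. In ozone the strains overlapped, at 0.32 (SE 0.28). The order of the means was C3H/HeJ air, C3H/HeJ ozone, C3H/HeOuJ ozone and C3H/HeOuJ air, and of the neighbours only the first 2 and the middle 2 overlapped.

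Macrophage markers were set beside Hbegf as a list of cell type markers. The summed intensity of 8 markers on the array, of 9 listed, was 6261 to 6376 in C3H/HeJ ozone and 7877 to 8245 in C3H/HeJ air, while it was 8269 to 9276 in C3H/HeOuJ ozone and 10780 to 11900 in C3H/HeOuJ air. Marco was too dim to be tested, and the other 7 were measured. The marker sum was highest in C3H/HeOuJ air, the group with the lowest Hbegf, but bright probe sets weigh most in a sum. Gene by gene, 3 of the 7 were higher and 4 lower for C3H/HeJ over C3H/HeOuJ in air, and none passed there. At an unadjusted p under 0.05 in limma, 0 were higher and 2 lower, where 5.71% of all probe sets had such a p. Sums of 6 alveolar type 2 markers, of 9 listed, were 128100 to 146500 in C3H/HeJ air and 118100 to 134600 in C3H/HeOuJ air, and these overlapped. In ozone they were 115200 to 128900 in C3H/HeJ and 164200 to 178100 in C3H/HeOuJ. The C3H/HeOuJ sums thus lay higher in ozone than in air without overlap, as Hbegf did. Gene by gene, 3 of the 6 were higher and 3 lower for ozone over air in C3H/HeOuJ, and none passed. The part of either cell type in the Hbegf values was not tested.

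Tgfa, the ligand closest to Egf in its action on Egfr, was measured on every array without a difference between groups beyond the arrays' spread. Its intensities were 203 and 193 in C3H/HeJ ozone, against 328 and 196 in C3H/HeJ air, and 241 and 140 in C3H/HeOuJ ozone, against 169 and 180 in C3H/HeOuJ air. A single array, C3H/HeJ air 1a, gave the high mean of its group. The ozone effect was -0.36 (SE 0.42) in C3H/HeJ and 0.07 (SE 0.42) in C3H/HeOuJ. The intervals ran from 0.403-fold to 1.51-fold and from 0.541-fold to 2.03-fold. C3H/HeJ lay above C3H/HeOuJ in air without overlap, at 0.54 (SE 0.42) on the log2 scale, and at 0.17 without C3H/HeJ air 1a, and the estimate did not pass. Every neighbouring pair in the order of the means overlapped.

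Egf itself, the founding ligand, lay near the floor. Probe set 161460_r_at had intensities of 153 and 40.2 in C3H/HeJ ozone, against 98.2 and 79.2 in C3H/HeJ air. It had 48.9 and 24.3 in C3H/HeOuJ ozone, against 67.6 and 123 in C3H/HeOuJ air. Both C3H/HeOuJ ozone arrays lay below the floor and have only a bound. With them, 1 array each of C3H/HeJ ozone and C3H/HeOuJ air lay below it too, so no fold is given here. C3H/HeJ ozone 1b, like both C3H/HeOuJ ozone arrays, lay below the floor and cannot be ordered against them. Neither ozone over air in C3H/HeOuJ nor C3H/HeJ over C3H/HeOuJ in ozone passed (adjusted p 0.690 and 0.534 in limma). The second Egf probe set, 102774_at, read 30.4 to 78.0 and cleared the floor on 1 array, C3H/HeOuJ ozone 1a.

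Ereg and Btc were not measured above the floor on any array. Ereg, a ligand that binds Egfr with low affinity, read 6.16 to 59.5 with probe set 161158_f_at and 7.30 to 37.1 with 98802_at. Btc, a ligand of both Egfr and Erbb4, read 3.84 to 43.0. Values below the floor have no order, so no fold change is given for them. For these 2 ligands a change could not have been detected unless it lifted them over the floor.

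The comparisons drew the members apart in few cases. For ozone over air in C3H/HeJ, 0 of 7 tested probe sets passed, where 0% of all probe sets did, none had an unadjusted p under 0.05 against 4.35% of all, and the groups failed to overlap for 1 member, where 34.4% of all did. For ozone over air in C3H/HeOuJ, 0 of 7 passed against 0.456% of all, with 1 at an unadjusted p under 0.05 against 15.5%, and 2 without overlap against 41.8%. Averaged over the strains, 0 of 7 passed against 0.0183%, none had an unadjusted p under 0.05 against 9.25%, and none was without overlap against 3.23%. In these 3 comparisons no share of the members lay above that of all probe sets.

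Between the strains in air, 0 of 7 passed against 0.0456% of all probe sets, 2 had an unadjusted p under 0.05 against 5.71%, and 5 were without overlap against 32.7%. Those 5 were Hbegf, Erbb3 and Tgfa, higher in C3H/HeJ (as for 15.5% of all), and Egfr by 101840_at and 101841_at, lower in C3H/HeJ (as for 17.1% of all). These 5 are not separate results: all use the same C3H/HeOuJ air arrays, and 2 of them read the same gene. Erbb3 missed an overlap only narrowly, at 1942 against 1938. Between the strains in ozone, 0 of 7 passed against 0.977%, none had an unadjusted p under 0.05 against 18%, and 1 was without overlap against 45.9%. For the difference of the ozone effects, 0 of 7 passed against 0%, and none had an unadjusted p under 0.05 against 11.4%. By sign, 4 of the members' differences were higher and 3 lower in C3H/HeJ. Of the 4 higher ones, 3 were probe sets of Egfr. The other was Egf, whose C3H/HeOuJ ozone arrays both lay below the floor, so no typical shift of the members is given.

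**Figure D3:**
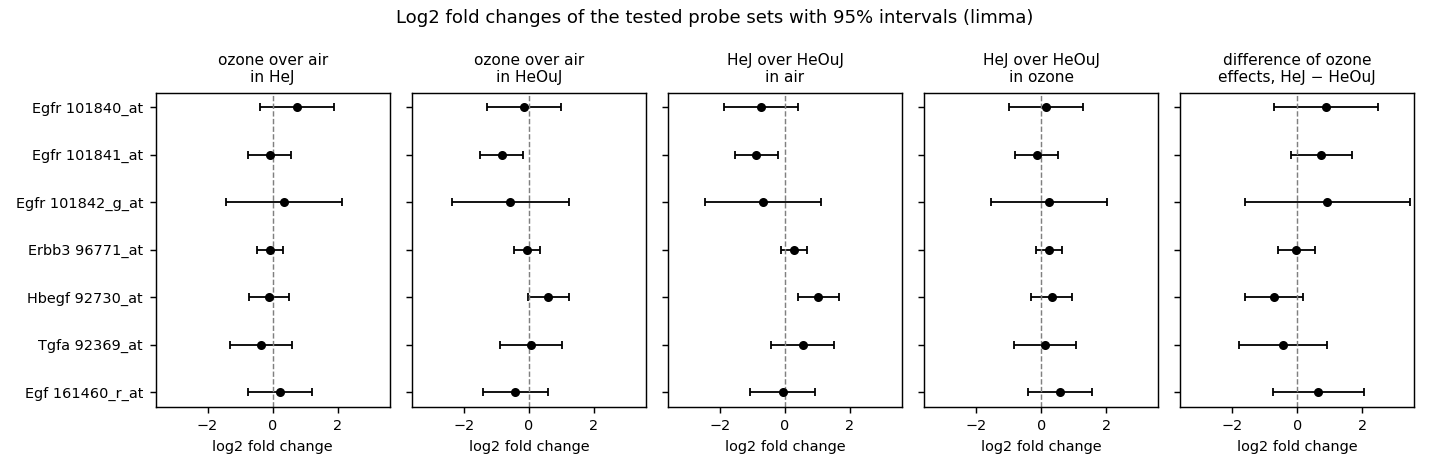
Log2 fold changes (points) with 95% intervals (bars) of the 7 tested probe sets in 5 comparisons, HeJ and HeOuJ standing for C3H/HeJ and C3H/HeOuJ. Only 3 intervals leave out 0: those of Egfr 101841_at for ozone in C3H/HeOuJ and between strains in air, and that of Hbegf between strains in air.

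The largest gap within a group was wider than the gap between group means for most members. For 5 of the 7 probe sets the largest gap between the 2 arrays of 1 group exceeded the gap between the highest and the lowest fitted group mean. These are unlike measures: the first is the largest of 4 gaps between single arrays, and the second lies between means of 2 arrays. The first can therefore be wider even where groups differ. Egfr 101841_at and Hbegf were the exceptions, at 1.37-fold within a group against 1.96-fold between groups and 1.64-fold within against 2.04-fold between. These folds were taken after the floor, which narrowed the gaps within groups for Egfr 101841_at. Its deposited values were 19.9 and 84.7 in C3H/HeOuJ ozone and 79.5 and 24.3 in C3H/HeJ air, so it is an exception only after the floor. The standard errors for a comparison of 2 arrays with 2 ran from 0.18 for Erbb3 to 0.79 for Egfr 101842_g_at, around a median of 0.42.

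**Figure D4:**
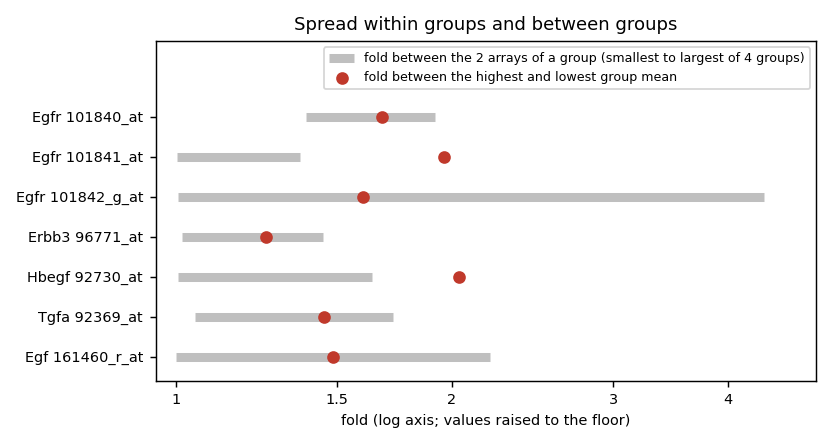
For each tested probe set, the grey bar spans the smallest to the largest fold between the 2 arrays of a group, and the red point is the fold between the highest and lowest group mean (log axis). With values raised to the floor, the red point lies beyond the bar for Hbegf (2.04) and Egfr 101841_at (1.96) and inside it for the other 5. For Egfr 101841_at the floor shortened the bar.

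The 2 C3H/HeOuJ ozone arrays differed from the other 6 in a measure of RNA quality. For actin the control signal from the 5' end over that from the 3' end was 0.756 to 0.766 on them against 0.432 to 0.603 on the rest. For Gapdh it was 1.18 to 1.34 against 0.775 to 1.06. For each member the ozone effect in C3H/HeOuJ, the mean over strains, the strain difference in ozone and the difference of the ozone effects use these arrays. In air the actin ratio was 0.598 and 0.603 in C3H/HeOuJ against 0.498 and 0.432 in C3H/HeJ, while the Gapdh ratios overlapped. The strain difference in air thus also compares arrays that differ in the actin ratio. With the ratio as a covariate 24 of 42 member values moved by more than their standard error. The ratio differed between groups, so this fit cannot fully separate it from group. With that covariate the Hbegf strain difference in air was 0.30, against 1.03 in the fit without it. The Hbegf ozone effect in C3H/HeOuJ was 1.56 (SE 0.48) with it, against 0.59 (SE 0.28). The ozone effect on Egfr 101841_at in C3H/HeOuJ was -1.21 (SE 0.65) with it, against -0.83 (SE 0.29). None of these passed. Apart from the covariate, the Hbegf strain difference in air was 0.67 without C3H/HeOuJ air 1a. The part of RNA quality in these results was not tested beyond these fits.

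Genes that act with the receptors were read from lists of 101 genes, of which 74 had a probe set named for them alone and 70 were tested, with 1 probe set per gene. In C3H/HeOuJ ozone over air, 1 passed, lower, where 0.456% of all probe sets passed, and 13 had an unadjusted p under 0.05 (2 higher and 11 lower), where 15.5% of all did, with 23 higher and 47 lower by sign and a median log2 fold change of -0.11, beside 0.02 over all probe sets. In C3H/HeJ ozone over air, 0 passed in limma, with 4 at an unadjusted p under 0.05 against 4.35% of all, 30 higher and 40 lower by sign, and a median of -0.05 beside 0.01. Between the strains, 0 passed in air, with 3 at an unadjusted p under 0.05 against 5.71% of all, and 2 passed in ozone, both higher in C3H/HeJ, against 0.977% of all. For the difference of the ozone effects 0 passed in limma and 12 had an unadjusted p under 0.05, against 11.4% of all. The receptor Erbb4 and the ligand Nrg3 had probe sets that were too dim to be tested.

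Among the proteases that release ligands, Adam19, a membrane metalloprotease known in mice to cut neuregulins, fell in C3H/HeOuJ with ozone. It had intensities of 451 and 477 in C3H/HeOuJ ozone, against 963 and 1012 in C3H/HeOuJ air, a log2 fold change of -1.09 (SE 0.17, adjusted p 0.0464 in limma). In C3H/HeJ it had 917 and 999 in ozone, against 955 and 1083 in air, a change of -0.09 (SE 0.17). C3H/HeJ over C3H/HeOuJ in ozone was 1.05 (SE 0.17, adjusted p 0.0474). The difference of the ozone effects was 1.00 (SE 0.25), with an adjusted p of 0.213, which did not pass. Both calls were lost in each of the 8 fits that left out 1 array, where the adjusted p ran from 0.0636 to 0.277 and from 0.0602 to 0.357, while the log2 fold changes ran from -1.13 to -1.05 and from 0.98 to 1.11. Both use the 2 C3H/HeOuJ ozone arrays that stand apart in the 5'/3' ratio, and with that ratio as a covariate they were -0.79 (adjusted p 0.913) and 0.58 (adjusted p 0.983).

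Of the 8 tested protease and shedding genes, 2 were higher and 6 lower by sign in C3H/HeOuJ with ozone. Timp3, which blocks the main sheddase Adam17, had a log2 fold change of -0.38 (SE 0.13) in C3H/HeOuJ and 0.37 (SE 0.13) in C3H/HeJ, and the difference of 0.75 (SE 0.18) had an adjusted p of 0.216. Its arrays read 8739 and 8736 in C3H/HeJ ozone against 6280 and 7325 in C3H/HeJ air, and 5918 and 6006 in C3H/HeOuJ ozone against 7560 and 7972 in C3H/HeOuJ air. The exposures did not overlap in either strain and lay in opposite order. Adam10, another sheddase of the ligands, had 0.52 (SE 0.26) in C3H/HeJ, and Adam9 had -0.42 (SE 0.18) for C3H/HeJ over C3H/HeOuJ in air.

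In the Ras-MAPK cascade, Nras, a small GTPase that relays receptor signals, was higher in C3H/HeJ ozone than in C3H/HeOuJ ozone by probe set 94362_at. Its intensities were 3224 and 3591 in C3H/HeJ ozone, against 1898 and 1617 in C3H/HeOuJ ozone, a log2 fold change of 0.96 (SE 0.16, adjusted p 0.0479 in limma). A second Nras probe set, 160925_at, gave -0.71 (SE 0.18, adjusted p 0.0962) for the same comparison, in the opposite direction. The call for 94362_at was lost in each of the 8 fits that left out 1 array, with adjusted p-values from 0.0834 to 0.357 and log2 fold changes from 0.84 to 1.07. In the fit with the control ratio as covariate it was 0.43 (adjusted p 0.983). Map2k1, the kinase above the MAP kinases, had -0.56 (SE 0.18, adjusted p 0.211) in C3H/HeOuJ with ozone, at 773 and 773 in ozone against 1150 and 1127 in air. Of the 13 cascade genes tested, 2 were higher and 11 lower by sign there.

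Feedback inhibitors and turnover genes gave no call in limma in any comparison. Errfi1, which binds and blocks Egfr family kinases, had 2860 and 2883 in C3H/HeJ ozone and 3207 and 3091 in C3H/HeJ air. In C3H/HeOuJ it had 3177 and 3091 in ozone and 4631 and 4395 in air. The C3H/HeOuJ air arrays were the 2 highest of the 8, as they were for Egfr 101841_at. C3H/HeJ over C3H/HeOuJ in air was -0.52 (SE 0.11, adjusted p 0.360). Dusp6, the phosphatase that turns off MAP kinases and is itself induced by them, had 3850 and 4075 in C3H/HeJ ozone against 2669 and 3125 in C3H/HeJ air, and 2426 and 3130 in C3H/HeOuJ ozone against 3541 and 3834 in C3H/HeOuJ air. Its ozone effect was 0.46 (SE 0.16) in C3H/HeJ, and the difference of the effects was 0.87 (SE 0.22, adjusted p 0.224). Eps15, which carries receptors into endosomes, had 0.91 (SE 0.27, adjusted p 0.140) for C3H/HeJ over C3H/HeOuJ in ozone. Its C3H/HeOuJ ozone arrays lay far apart, at 3213 and 1626, against 4303 and 4303 in C3H/HeJ ozone.

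Neither the early response genes nor the PI3K and STAT arms gave a call. Among 19 early response genes, Mcl1, a survival factor, had -0.70 (SE 0.15, adjusted p 0.0891) in C3H/HeOuJ with ozone, and Ier3, an early gene that Egf induces, had 0.81 (SE 0.22, adjusted p 0.141). Ier3 read 12942 and 16159 in C3H/HeOuJ ozone against 9481 and 7150 in C3H/HeOuJ air, and the exposures did not overlap. Jak1, a kinase of cytokine receptors, had -0.53 (SE 0.17) in C3H/HeJ and -0.41 (SE 0.17) in C3H/HeOuJ, with adjusted p-values of 0.980 and 0.295. Src had -0.74 (SE 0.30) in C3H/HeJ with an adjusted p of 1.

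**Figure D5:**
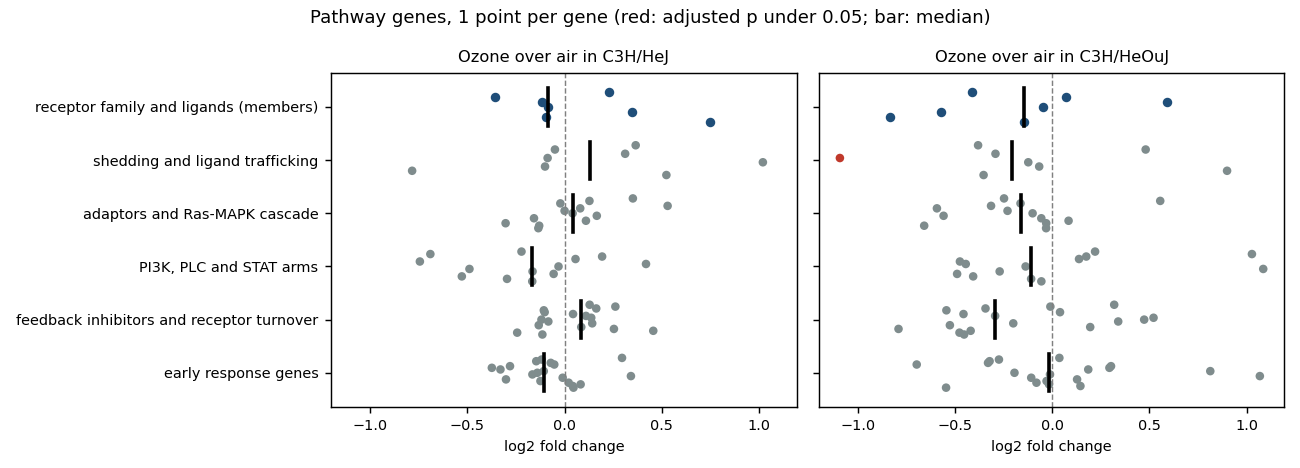
Log2 fold changes of ozone over air in C3H/HeJ (left) and C3H/HeOuJ (right), 1 point per gene in 5 lists around the receptors and 1 point per probe set for the members, with medians as bars. Only Adam19 in C3H/HeOuJ, in red at -1.09, passed an adjusted p of 0.05.

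Genes whose levels ran most like those of the members over the 8 arrays were named by Pearson correlation of log2 intensity, which is a description only, since they were the highest among all probe sets tested. For Hbegf they were Noc4l (0.96), Casp2 (0.94) and Tnfrsf11b (0.92). Noc4l, like Hbegf, was lowest in C3H/HeOuJ air, with a mean intensity of 946 in C3H/HeJ ozone, 1140 in C3H/HeJ air, 864 in C3H/HeOuJ ozone and 637 in C3H/HeOuJ air. For Egfr 101841_at they were Tmem71 (0.97), Gcg (0.97) and Gria4 (0.96), each with group means under the floor in all groups but C3H/HeOuJ air, so the likeness rests on that group. For Erbb3 96771_at they were Gm15987 (0.96), Ncdn (0.95) and Pkp2 (0.94), and Ncdn had mean intensities of 769 and 822 in C3H/HeJ ozone and air against 622 and 653 in C3H/HeOuJ ozone and air.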

How the data were processed

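RNA of whole lung had been hybridised to Affymetrix arrays. The deposited intensity values, which are linear, share a 2% trimmed mean of 800.4 on all 8 arrays and so had been scaled by the authors; the scaling software was not given in the sources used here, and the labels give no batch. Of 12488 rows, 66 controls were set aside. Genes were named from an array annotation of 2016 (10833 probe sets with 1 gene, 396 with several, 1193 with none), with symbols updated through RefSeq gene identifiers. Between 17.7% and 21.1% of an array's values lay at or below the floor, and the number of arrays limits the precision.

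Group means of all 8 arrays were fitted with limma (version 3.58.1; R 4.3.3), using eBayes with trend on mean intensity (4 residual and 4.54 prior degrees of freedom), the Benjamini-Hochberg adjustment ran over 10953 probe sets, and the threshold was 0.05. Fold changes are ozone over air or C3H/HeJ over C3H/HeOuJ, and SE is the moderated one. No fold is given in the text against a group whose 2 arrays both lay at the floor, though the figures plot such values for Egf. The fit was tested on simulated data.

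All member probe sets are named. From each pathway list, up to 4 genes past the threshold in a direction, and otherwise up to 2 of smallest p in a comparison, were eligible; the probe set of highest mean stood for a gene. The 3 member probe sets of smallest F test p, 1 per gene, were used for the genes of like pattern. The members, lists and tests were chosen with earlier results of these data known. Alternatives covered scaling, floor, filter, variance trend, arrays in the fit, replicate letters, the 5'/3' control ratio and leaving out each array; 1, without both C3H/HeOuJ ozone arrays, was added after the data were seen; it can change only the error of comparisons that do not use those arrays. Correlations and figures used Python 3.11.15 with scipy 1.17.1, pandas 2.3.3 and matplotlib 3.10.9.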

Additional observations from a re-analysis of the deposited data

Results flagged for a closer look

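No member met a rule for a closer look, and groups of 2 arrays are too small to test for an outlying array. Among the named pathway genes, 6 had ozone and air arrays that did not overlap in either strain and lay in opposite order in the 2 strains. Several of these genes were named for their small p in the difference of the ozone effects, so their number is not set against that over all probe sets. The difference of the ozone effects, C3H/HeJ minus C3H/HeOuJ on the log2 scale, passed for none of them in limma. It was 0.75 (adjusted p 0.216) for Timp3 and 0.60 (adjusted p 0.429) for Adam9, both shedding genes. It was 0.87 (adjusted p 0.224) for the phosphatase gene Dusp6 and 1.04 (adjusted p 0.368) for the endocytosis gene Eps15. Eps15 read 3213 and 1626 in C3H/HeOuJ ozone, so its value leans on the lower array. For the kinase gene Prkca it was 0.86 (adjusted p 0.487). For Pik3r2, a regulatory subunit of PI3K, it was -1.57 (adjusted p 0.438), the only one of the 6 with ozone below air in C3H/HeJ. Pik3r2 read 131 and 394 in C3H/HeOuJ air, against 541 and 428 in C3H/HeOuJ ozone, so its value leans on the lower air array.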

How the results depend on the processing

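No member passed the threshold under any alternative run in any of the 6 comparisons, with all 12 probe sets tested or with only the 4 above the floor on all 8 arrays; only the arrays compared were not refitted alone for the mean of both strains and for the difference of the effects, which use all groups. With the replicate block (letters 1a and 1b) the smallest unadjusted p of a member, for Hbegf between strains in air, was 8.1e-04 and the adjusted p 0.350 in limma, and the count of members past the threshold stayed at 0. The letters were not shown to pair the arrays: the differences of 1a and 1b correlated between groups at -0.01 to 0.14. The signs of small estimates depended on the processing: of 738 values of members under alternatives, 50 changed sign, and in 48 of these the value had been smaller than its standard error. No sign changed with quantile normalization, median centring, no filter, no trend or the replicate block.

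Values that changed sign are log2 fold changes. With the 5'/3' ratio as covariate, Egfr 101840_at became 0.28 for ozone in C3H/HeOuJ and -0.52 between strains in ozone, Egfr 101841_at 0.45 between strains in ozone, Egfr 101842_g_at 0.41 between strains in air, Erbb3 0.35 and Tgfa 0.46 for the difference of the effects, Tgfa -1.01 for ozone in C3H/HeOuJ, and Hbegf 0.053 for ozone in C3H/HeJ and -1.20 between strains in ozone. With the floor at the 10th percentile, and with no floor and 50 added, Egf became -0.17 and -0.030 for ozone in C3H/HeJ, and Egfr 101841_at 0.39 and 0.22 there and 0.34 and 0.23 between strains in ozone. The cause was not tested.

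With 1 array left out in turn, the values for ozone in C3H/HeJ ran from -0.19 to 0.0018 for Egfr 101841_at, -0.35 to 1.04 for Egfr 101842_g_at, -0.35 to 0.18 for Erbb3, -0.45 to 0.21 for Hbegf, -0.73 to 0.014 for Tgfa and -0.34 to 0.80 for Egf. For ozone in C3H/HeOuJ they ran from -0.62 to 0.32 for Egfr 101840_at, -1.64 to 0.49 for Egfr 101842_g_at, -0.11 to 0.013 for Erbb3 and -0.32 to 0.46 for Tgfa. For the mean of both strains they ran from -0.64 to 0.42 for Egfr 101842_g_at, -0.20 to 0.068 for Erbb3, -0.34 to 0.053 for Tgfa and -0.38 to 0.19 for Egf. Between strains in air they ran from -1.45 to 0.090 for Egfr 101842_g_at and -0.49 to 0.34 for Egf. Between strains in ozone they ran from -0.32 to 0.62 for Egfr 101840_at, -0.28 to 0.0018 for Egfr 101841_at, -0.82 to 1.31 for Egfr 101842_g_at, -0.0099 to 0.65 for Hbegf and -0.28 to 0.50 for Tgfa. For the difference of the effects they ran from -0.15 to 1.98 for Egfr 101842_g_at and -0.30 to 0.23 for Erbb3.

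Counts over all probe sets moved more. For ozone in C3H/HeOuJ the 50 calls became 106, 115 and 123 with the lower floor, no floor and the stricter filter, and 0 without the intensity trend, with the covariate or with only the arrays compared. Between strains in ozone the 107 calls became 192, 226 and 271 under the first 3 of these, 185 with the replicate block, 57 with no filter and 0 under the last 3. With 1 array left out they ran from 0 to 22 and from 0 to 31. In the other 4 comparisons, with 0 to 5 calls, they ran from 0 to 14. Adam19 in C3H/HeOuJ passed in 7 of 10 other alternatives and Nras in 6 of 10. The floor limits what can be said of Ereg, Btc and Egf.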
